A study of Mus musculus with 23 samples.

Results

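The 10 genes described here encode costimulatory and checkpoint molecules, the surface proteins that raise or restrain lymphocyte responses. They comprise 6 ligands, Cd80, Cd86, Cd83, Icosl, Cd274 and Pdcd1lg2, and 4 receptors, Ctla4, Cd28, Icos and Pdcd1, where Cd83 is grouped with the ligands as a marker of activated antigen-presenting cells. The genes were chosen by their known function and from their measured levels in lymphoma lines and spleens, so differences between the groups are given for them as a description, with no p-value for any single difference. Counts of genes past the threshold of the fit stand beside the share of all genes past it, and nothing is read from them. All 10 of 10 genes had a probe among 18217 genes on the array, and all 10 passed the filter on dim probes that left 13765 genes tested. That filter asked for a signal that the scanner software marks as well above background in 6 or more of the 22 samples.

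RNA was measured on single-colour Agilent whole mouse genome arrays in 3 groups, all of mixed C57BL/6 and 129 background and all without Cd3e, a signalling chain of the T cell antigen receptor without which mature T cells do not form. The first group was 9 B cell lymphoma lines (ATMKO.CD3eKO), grown in suspension from spleens that bore tumours, whose sex the labels do not give. The second was 6 tumour-free spleens of ATMKO.CD3eKO mice, all female, called knockout spleens below, and the third was 7 spleens of ATMWT.CD3eKO mice, 4 male and 3 female, called wild-type spleens. The ATM kinase responds to breaks in DNA, and the study set the lymphomas that arise without it against normal spleen. Ages are not given in the labels used here. Sample titles carry a number for each sample but do not say that every sample came from a separate animal, so p-values measure the spread between these samples. A line is a population of cultured cells and a spleen a mixture of cell types, and in such bulk RNA fewer cells of a type and less RNA per cell cannot be told apart.

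CD80 and CD86 on antigen-presenting cells bind CD28, which stimulates T cells, and CTLA-4, which restrains them and removes the ligands from the cells that carry them. ICOS ligand binds ICOS, a relative of CD28, while PD-L1 (Cd274) and PD-L2 (Pdcd1lg2) bind the inhibitory receptor PD-1 (Pdcd1). B cells carry several of the ligands and raise CD80 and CD86 when activated, whereas the receptors are best known from T cells.

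Promoter sequences from RefSeq (GRCm38.p6) were matched for 6 of the 10 genes, namely Cd80, Icosl, Cd274, Pdcd1lg2, Ctla4 and Pdcd1. The 250 bases before the transcript start that RefSeq's table gives are shown for Ctla4, which of the 10 had the largest difference between the genotypes, and for the 3 ligands whose window held a match to a motif searched. Each runs from 5′ to 3′, and capitals mark the matches.
Ctla4 (chr1:60908775-60909024, plus strand): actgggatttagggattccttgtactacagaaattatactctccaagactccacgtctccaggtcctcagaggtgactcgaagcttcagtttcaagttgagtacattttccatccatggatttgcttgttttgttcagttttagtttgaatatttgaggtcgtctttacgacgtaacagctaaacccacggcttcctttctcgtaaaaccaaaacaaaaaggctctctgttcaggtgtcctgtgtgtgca
Cd80 (chr16:38458683-38458932, plus strand): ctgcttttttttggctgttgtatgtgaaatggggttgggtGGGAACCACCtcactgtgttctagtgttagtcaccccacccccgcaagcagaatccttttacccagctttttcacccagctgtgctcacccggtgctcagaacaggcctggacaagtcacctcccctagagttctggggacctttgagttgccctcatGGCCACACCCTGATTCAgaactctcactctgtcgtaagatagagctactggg
Icosl (chr10:78069118-78069367, plus strand): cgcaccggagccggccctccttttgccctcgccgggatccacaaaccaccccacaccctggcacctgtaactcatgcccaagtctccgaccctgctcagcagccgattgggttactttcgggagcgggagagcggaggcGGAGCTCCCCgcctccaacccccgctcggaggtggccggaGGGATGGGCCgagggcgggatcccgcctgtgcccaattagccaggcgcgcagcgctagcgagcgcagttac
Pdcd1lg2 (chr19:29410669-29410918, plus strand): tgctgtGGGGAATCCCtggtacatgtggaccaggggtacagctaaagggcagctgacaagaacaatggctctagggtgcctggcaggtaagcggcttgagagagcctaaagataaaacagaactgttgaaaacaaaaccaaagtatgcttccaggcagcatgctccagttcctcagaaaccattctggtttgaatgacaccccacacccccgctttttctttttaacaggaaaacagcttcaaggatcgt

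The 4 motifs searched, on both strands, were GGGNNNNNCC for NF-kB, TTCNNNGAA (the GAS element) for STAT factors, TGANTCA for AP-1 and GAAANNGAAA (ISRE) for interferon regulatory factors. The Cd80 window held the NF-kB letters from base 210 to base 201 and from base 52 to base 43 before the start, the latter directly beside the AP-1 letters at bases 42 to 36. The Icosl window held the NF-kB letters at bases 111 to 102 and 71 to 62, and the Pdcd1lg2 window at bases 244 to 235. None of the 4 motifs was found in the windows of Ctla4, Cd274 and Pdcd1. Among windows of the same length before 32851 transcript starts, 45.8% held the NF-kB letters, 7.02% the GAS, 6.75% the AP-1 and 2.98% the ISRE letters. A match is a description of these letters and says nothing of binding.

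Of all probes, 55% to 62.3% were well above background on an array of a line, against 62.3% to 67.5% for a knockout spleen and 61.4% to 66.7% for a wild-type spleen, and the number of samples limits the precision. The arrays lay on 6 slides, of which 5 held all 3 groups and 1 held only lines 7, 8 and 9. For line 8 the mean of its 2 arrays was used, because a title marks 1 of them as a repeat. Line 8 could count as well above background when only 1 of its 2 arrays was. The design text counts 10 lines, and whether both arrays hold the same RNA is not given in the sources used here. The Atm probe separated the labels, with log2 levels from -0.66 to 0 in wild-type spleens, from -2.69 to -2.07 in knockout spleens and from -4.38 to -2.77 in the lines. The Cd3e probe was well above background in all 22 samples, and the labels do not say whether it lies in the deleted stretch, so it checks nothing. A level is the log2 signal minus that of the array's 75th percentile, so a level of 0 is that percentile. Levels of different genes come from different probes and are not set against each other.

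Cd80 was high in every lymphoma line. Its log2 level was 0.73 at the lowest, 1.09 at the median and 1.53 at the highest over the 9 lines. In knockout spleens it ran from -2.52 through a median of -2.02 to -1.59, and in wild-type spleens from -3.32 through -2.65 to -2.32. All 9 lines lay above all 13 spleens. The log2 difference of the lines was 3.19 ± 0.17 (SE) from knockout spleens, or 9.15-fold, and 3.87 ± 0.16 from wild-type spleens, or 14.7-fold. Within the 5 slides that held all groups, the difference from knockout spleens ran from 2.79 to 3.87.

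Cd86, the other ligand of CD28 and CTLA-4, was also higher in the lines, by a smaller amount. The lines ran from 0.42 through a median of 1.77 to 2.30 (log2 level), knockout spleens from -0.15 through 0.49 to 0.83, and wild-type spleens from -0.14 through 0.04 to 0.38. Lines 2 and 8, at 0.42 and 0.74, overlapped the knockout spleens, while all lines lay above the wild-type spleens. The log2 difference was 1.26 ± 0.24 (SE) from knockout and 1.58 ± 0.23 from wild-type spleens. A second Cd86 probe had the lines from 0.99 to 2.84 and the knockout spleens from -0.36 to 0, with no overlap.

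Cd83, a surface glycoprotein of activated B cells and mature dendritic cells, was lower in the lines than in knockout spleens. The lines ran from 4.27 through a median of 4.69 to 5.39, knockout spleens from 5.58 through 6.14 to 6.34, and wild-type spleens from 4.55 through 5.09 to 5.17. All lines thus lay below all knockout spleens and overlapped the wild-type spleens. The log2 difference was -1.24 ± 0.16 (SE) from knockout spleens. Against wild-type spleens it was -0.19 ± 0.16, and this value turned to 0.46 ± 0.17 when arrays were centred on their median and to -0.68 ± 0.14 after quantile normalisation.

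Icosl, the ligand of ICOS, had the largest difference of the 10 genes. Wild-type spleens ran from 3.70 through a median of 4.20 to 4.45 and knockout spleens from 2.91 through 3.66 to 4.15. The lines ran from -8.65 through -7.89 to -4.73, and only line 3, at -4.73, was well above background. On the deposited signal, dim lines were raised to the lowest level well above background on their arrays. Icosl was then at least 738-fold lower than in knockout spleens and at least 1110-fold lower than in wild-type spleens. With plain background subtraction and an offset the log2 differences were -6.88 and -7.45, against -9.53 and -10.12 for these bounds. A second Icosl probe was well above background in 0 of 9 lines and in all 13 spleens, and on it the lines were at least 3.73-fold lower than knockout and at least 6.14-fold lower than wild-type spleens. The mean level of the second probe was -4.30 in knockout spleens, nearer to the floor of the arrays, which limits the bound it can give.

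Cd274, which encodes the inhibitory ligand PD-L1, was lower in the lines than in knockout spleens without overlap. The lines ran from 0.22 through a median of 1.05 to 2.10, knockout spleens from 2.49 through 2.66 to 2.88, and wild-type spleens from 1.58 through 1.89 to 1.99. Line 3, at 2.10, lay above all wild-type spleens and the other lines lay below them. The log2 difference was -1.55 ± 0.19 (SE) from knockout spleens and -0.70 ± 0.19 from wild-type spleens, and the latter shrank to -0.06 ± 0.18 with arrays centred on their median. Pdcd1lg2, which encodes PD-L2, ran in the lines from -4.80 through -2.73 to -1.88. Knockout spleens ran from -1.82 through -1.50 to -1.01 and wild-type spleens from -1.67 through -1.41 to -1.21. All 9 lines lay below all 13 spleens, and lines 6, 7 and 8, at -4.29, -4.61 and -4.80, were the lowest. The log2 difference was -1.71 ± 0.37 (SE) from knockout and -1.77 ± 0.35 from wild-type spleens.

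**Figure D1:**
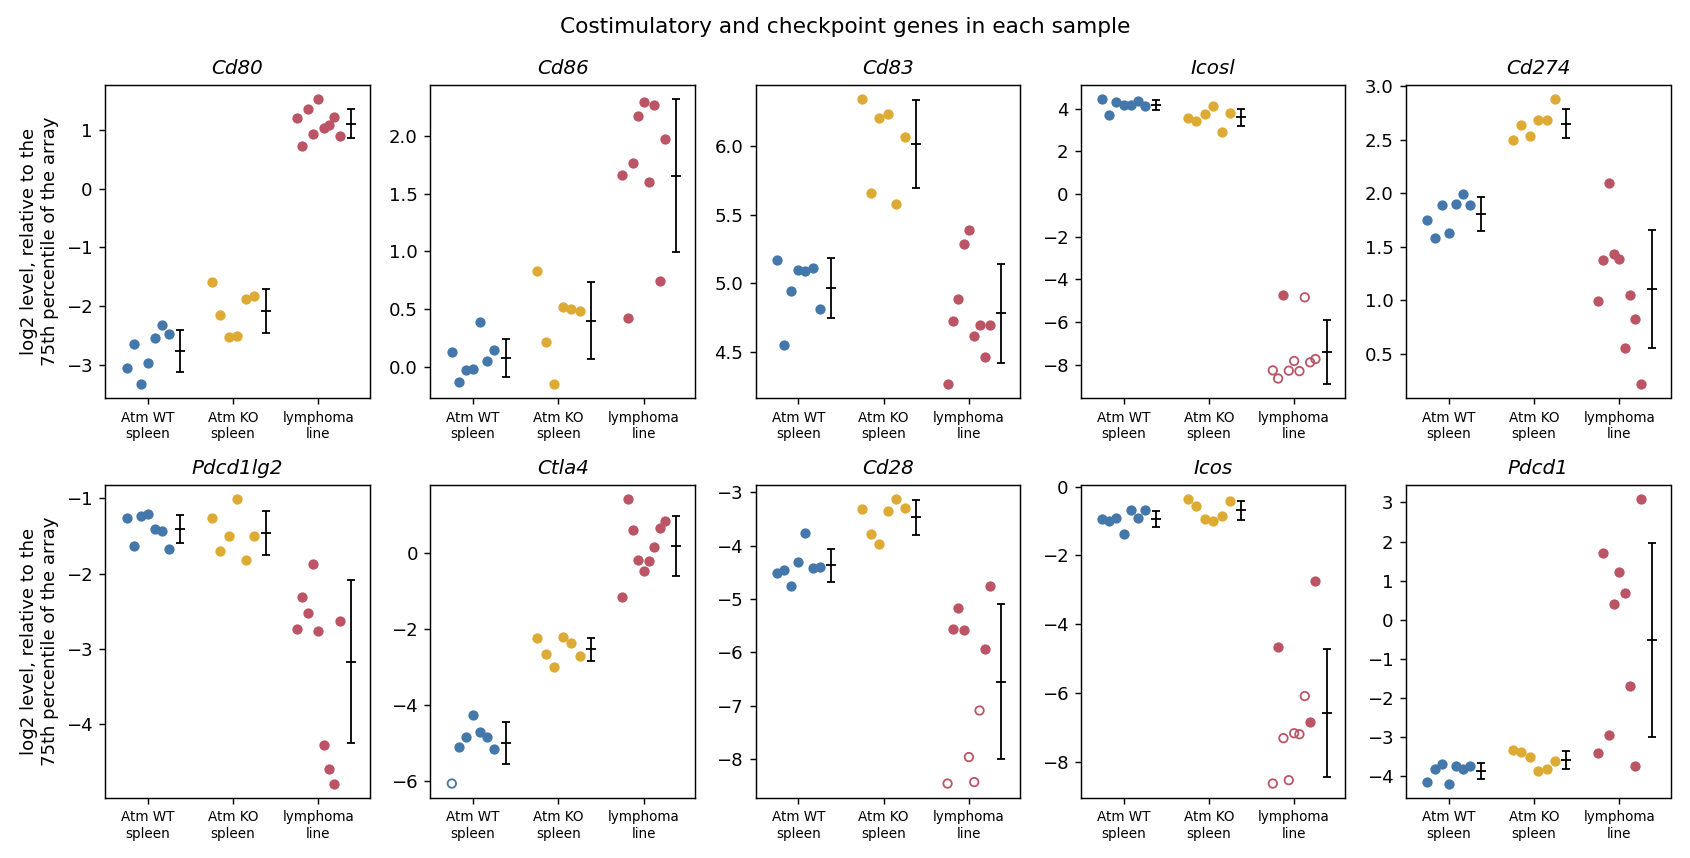
Log2 level of each gene relative to the 75th percentile of the array (vertical axes, with a range of their own in each panel) in 7 wild-type spleens, 6 knockout spleens and 9 lymphoma lines (horizontal axis). Points are samples, open points are not well above background, and bars are the mean ± SD. Cd80 and Ctla4 of the lines lie above all spleens, Icosl of the lines lies far below them, and Pdcd1 of the lines spreads from -3.73 to 3.09.

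Ctla4, the inhibitory receptor for CD80 and CD86, lay above the spleens in every line. Its log2 level ran over the lines from -1.18 (line 1) through a median of 0.15 to 1.41 (line 2). Knockout spleens ran from -3.00 through -2.53 to -2.22, and wild-type spleens from -6.07 through -4.85 to -4.27, with 1 wild-type spleen not well above background. The 3 groups did not overlap, and their order was wild-type spleens, knockout spleens, lines. The log2 difference of the lines was 2.72 ± 0.31 (SE), or 6.58-fold, from knockout spleens. From wild-type spleens it was 5.18 ± 0.30, or 36.2-fold. The dim spleen, at -6.07, already lay above the lowest level well above background on its array, -6.35. The size depended on the background correction. The differences from knockout and wild-type spleens were 2.34 and 3.46 with subtraction and an offset, and 2.26 and 2.48 with normexp background correction. Within the 5 shared slides the difference from knockout spleens ran from 1.07 to 4.25.

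Cd28 and Icos lie beside Ctla4 in RefSeq's gene order, and both were lower in the lines than in the spleens. Line 9, the highest of the lines for Cd28 and Icos, was at 0.84 for Ctla4. Line 1, the lowest for Ctla4, was not well above background for Cd28 or Icos, so its place among the lines is not known for them. The order of the lines was therefore not compared between these genes. Cd28, the stimulatory receptor that shares its ligands with CTLA-4, ran in the lines from -8.46 through a median of -5.93 to -4.76, with 5 of 9 lines well above background. Knockout spleens ran from -3.96 through -3.33 to -3.12 and wild-type spleens from -4.75 through -4.43 to -3.75. All lines lay below all spleens, though line 9, at -4.76, was close to the lowest wild-type spleen. On the deposited signal, dim lines were raised to the lowest level well above background. Cd28 was then at least 4.67-fold lower than in knockout spleens and at least 2.50-fold lower than in wild-type spleens. As fitted, the log2 difference was -3.09 ± 0.49 (SE) from knockout spleens and -2.18 ± 0.47 from wild-type spleens. With normexp background correction, which raised the dim probes of 3 arrays, these became -0.42 ± 0.40 and -0.82 ± 0.38. Subtraction with an offset gave -0.75 and -0.36, both called lower, against -2.22 and -1.32 for the bounds.

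Icos, the receptor for ICOS ligand, ran in the lines from -8.63 through a median of -7.17 to -2.75. Lines 2, 8 and 9 counted as well above background. The arrays of line 8 had -5.29 and -8.40. Their mean of -6.84 lay below the lowest level well above background for that line, -6.02. Knockout spleens ran from -1.01 through -0.71 to -0.36 and wild-type spleens from -1.38 through -0.92 to -0.67. Every line lay below every spleen, and line 9, at -2.75, came nearest. With the lines not well above background raised and line 8 left as measured, Icos was 32.5-fold lower in the lines than in knockout spleens. From wild-type spleens it was 27.5-fold lower. These are no strict bounds, and with subtraction and an offset the log2 differences were -2.90 and -2.67, against -5.02 and -4.78. A second Icos probe was well above background in lines 2, 3 and 9. Its mean level was -6.82 in the lines, -2.55 in knockout spleens and -2.78 in wild-type spleens.

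Pdcd1, which encodes PD-1, divided the lines. Lines 9, 2, 5, 6 and 4 had log2 levels of 3.09, 1.71, 1.21, 0.68 and 0.41, line 7 had -1.70, and lines 3, 1 and 8 had -2.93, -3.41 and -3.73. Knockout spleens ran from -3.87 through a median of -3.55 to -3.32 and wild-type spleens from -4.18 through -3.81 to -3.69. Lines 1 and 8 lay within the range of the spleens, and line 3 lay just above it. For line 8 this holds only for the mean of its arrays, which had -3.13, above all spleens, and -4.33, below them. The log2 difference was 3.06 ± 0.81 (SE) from knockout and 3.35 ± 0.77 from wild-type spleens, and within the 5 slides the difference from knockout spleens ran from -0.09 to 5.14.

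Of the 10 genes, 4 were called higher in the lines than in knockout spleens at an adjusted p under 0.05 (2 without overlap) and 6 lower (6 without overlap). Over all 13765 genes, 41.5% were called higher (24% without overlap) and 28.9% lower (16.8% without overlap). Against wild-type spleens 4 were called higher (3 without overlap) and 5 lower (4 without overlap), and over all genes 40.3% were called higher (23.8% without overlap) and 30.9% lower (18% without overlap). The median log2 difference of the 10 genes was -1.39 from knockout spleens and -0.44 from wild-type spleens, against 0.18 and 0.14 over all genes. Both comparisons share the lines.

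**Figure D2:**
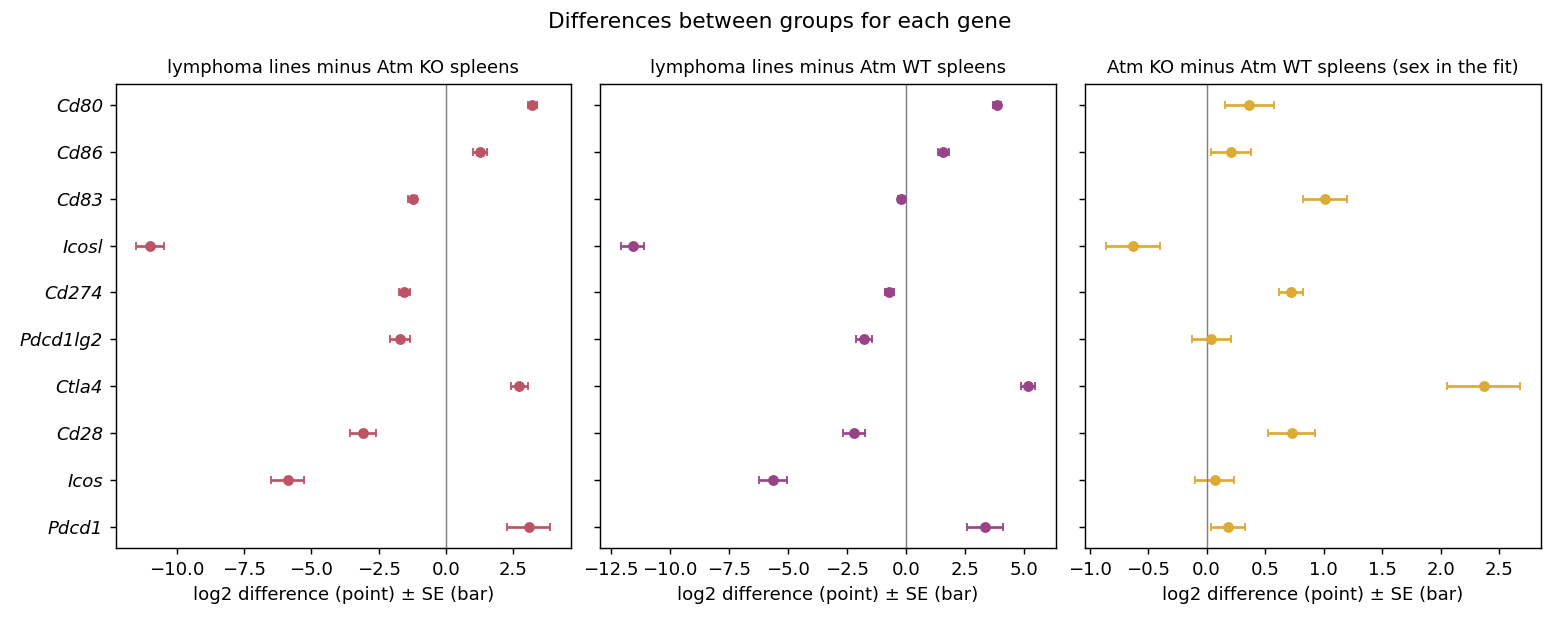
Log2 difference ± SE (horizontal axes, with a range of their own in each panel) of each gene (vertical axis) for lymphoma lines minus knockout spleens, lymphoma lines minus wild-type spleens, and knockout minus wild-type spleens with sex in the fit. Icosl lies near -11 in both comparisons of the lines as fitted, with 8 of 9 lines not well above background. Ctla4 lies at 2.37, Cd83 at 1.01 and Cd274 at 0.72 in the comparison of genotypes.

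The comparison of knockout with wild-type spleens asks what differed with the Atm genotype before a tumour was present. The genes were proposed with levels of these spleens in view too, so this comparison is also a description. Whether a single gene was called is given below only to show how the fit depends on its settings. No such call is support for a difference. Ctla4, Cd83 and Cd274 were higher in knockout spleens. Ctla4 was 5.15-fold higher (log2 difference 2.37 ± 0.31 SE), with all 6 knockout spleens above all 7 wild-type spleens. Cd83 was 2.02-fold higher (1.01 ± 0.19) and Cd274 1.65-fold higher (0.72 ± 0.10), each also without overlap. Because no knockout spleen was male, the fit with a sex term sets the knockout spleens against the 3 female wild-type spleens, and the males inform the spread and the effect of sex. Over all 13765 genes, 1.64% were called higher (1.25% without overlap) and 2.16% lower (0.952% without overlap). Of the 10, 3 were called higher (3 without overlap) and 0 lower by limma, and at an unadjusted p under 0.05 there were 4 higher and 1 lower. The median log2 difference of the 10 was 0.29, against -0.05 over all genes.

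Within the 5 slides the difference ran from 1.88 to 3.15 for Ctla4, from 0.48 to 1.38 for Cd83 and from 0.67 to 1.06 for Cd274. A single sign on all 5 slides was not particular to these genes. Cd28 ran from 0.59 to 1.22, Cd80 from 0.31 to 1.21, Cd86 from 0.17 to 0.57 and Icosl from -1.26 to -0.07. On 2 of the 5 slides the wild-type spleens were all male, so sex and genotype cannot be told apart there. The size for Ctla4, which was dim in wild-type spleens, depended on the background correction. It was 1.01 ± 0.16 (SE), still called, with plain subtraction and an offset, and 0.05 ± 0.63, not called, with normexp. Cd83 and Cd274 were not called with normexp either, at differences of 1.29 ± 0.31 and 0.88 ± 0.19. Both differences were larger than in the main fit, at 1.01 and 0.72. Over all 13765 genes, normexp called only 2 higher and 1 lower between genotypes. Among the arrays whose probes it raised most were wild-type spleens 3 and 7, the latter female. Cd83 was also not called without wild-type spleen 5, 6 or 7, the 3 females, at differences of 1.05, 1.07 and 0.92.

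The other 7 genes were not called between genotypes. Cd28 had a log2 difference of 0.73 ± 0.20 (SE), and it was called with slide as a random block (0.76 ± 0.18) and without knockout spleen 3 (0.83 ± 0.19). Icosl had -0.63 ± 0.23 and Cd80 0.37 ± 0.21. Cd86 had 0.21 ± 0.17, Pdcd1 0.18 ± 0.15, Icos 0.07 ± 0.16 and Pdcd1lg2 0.04 ± 0.17. Without the sex term 6 genes were called, the added ones being Cd28 at 0.91 ± 0.17, Cd80 at 0.68 ± 0.19 and Icosl at -0.59 ± 0.18.

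The spread over the 9 lines differed between genes. Over 10482 genes that were well above background in every line, the median SD of the log2 level was 0.36. Cd80 had an SD of 0.25, with 22.2% of those genes below it, and Cd83 one of 0.36 (51.6%). Cd274 had 0.55 (78.1%), Cd86 0.66 (84.8%) and Ctla4 0.78 (89.3%). Pdcd1lg2 had 1.09 (94.6%) and Pdcd1 2.48, with 99.8% of genes below it. The 2 arrays of line 8 differed for bright and for dim probes. The first and the repeat array gave 1.27 and 1.19 for Cd80, 4.76 and 4.17 for Cd83 and 0.31 and 1.01 for Ctla4. For dimmer probes they gave -3.13 and -4.33 for Pdcd1, -3.78 and -5.82 for Pdcd1lg2 and -5.29 and -8.40 for Icos.

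**Figure D3:**
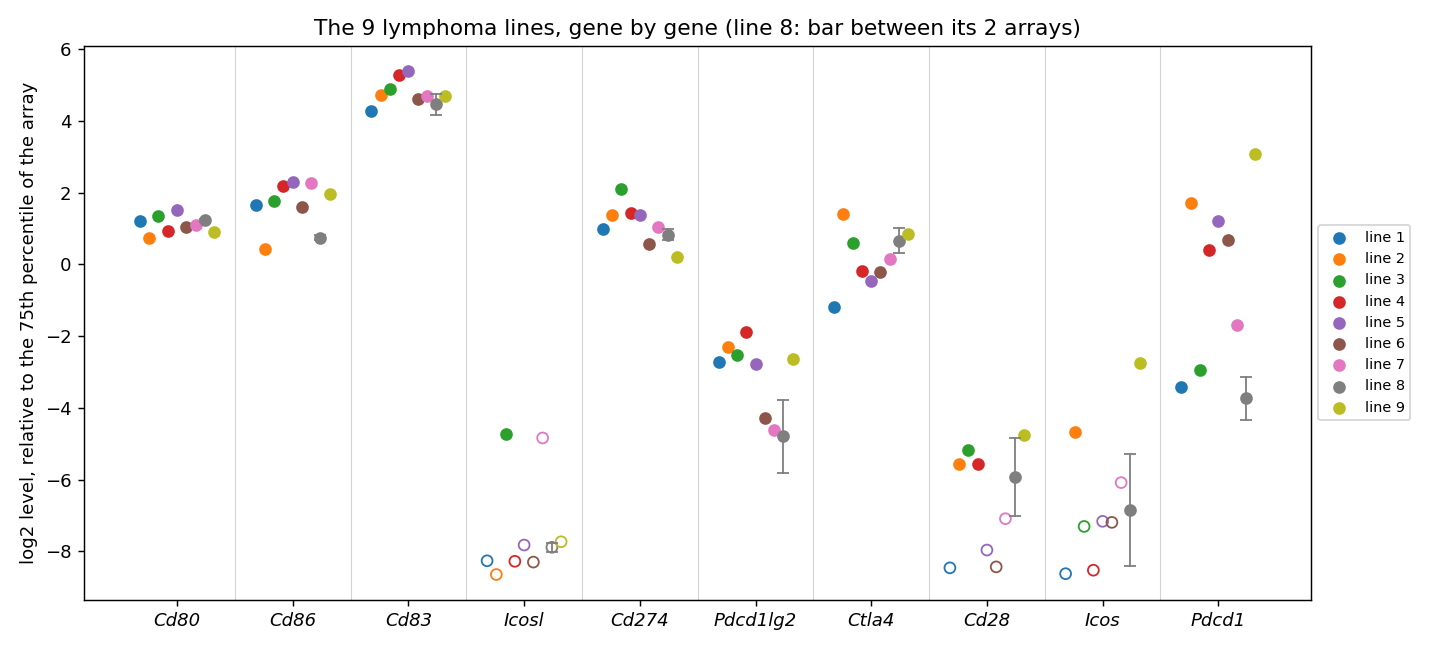
Log2 level relative to the 75th percentile of the array (vertical axis) of each gene (horizontal axis) in the 9 lymphoma lines, coloured by line. Open points are not well above background, and the grey bar joins the 2 arrays of line 8. Cd80 lies between 0.73 and 1.53 in every line, while Pdcd1 runs from -3.73 in line 8 to 3.09 in line 9.

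No pair of genes passed the test of correlation over the lines. Of 8 pairs considered, 5 had both genes well above background in all 9 lines. Pearson's r was 0.37 for Cd80 with Cd86, 0.42 for Cd274 with Pdcd1lg2, 0.49 for Cd83 with Cd86, -0.49 for Cd80 with Ctla4 and -0.56 for Cd86 with Ctla4. Spearman's rho was 0.33, 0.52, 0.55, -0.50 and -0.42 in the same order. The exact two-sided permutation p ran from 0.126 to 0.323 for r and from 0.129 to 0.385 for rho, and the adjusted p ran from 0.302 to 0.323 and from 0.297 to 0.385. Without the 2 lines farthest from the median of the first gene, r became -0.49, 0.78, 0.14, -0.02 and 0.15. The sign thus turned for the first and the last pair. Without lines 7, 8 and 9, which shared a slide, r was 0.70, 0.69, 0.53, -0.50 and -0.69.

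Genes beside these loci differed in both directions. On 1 side of Cd28, Ctla4 and Icos, Raph1, Abi2 and Cyp20a1 were higher in the lines than in knockout spleens, by log2 differences of 1.71, 3.11 and 1.72. On the other side Pard3b and Nrp2, a semaphorin co-receptor, differed by -1.51 and -6.71. Nrp2 was also higher in knockout than in wild-type spleens (0.85 ± 0.19 SE, adjusted p = 0.0299 by limma), with no overlap. Beside Cd274 and Pdcd1lg2, which were low in the lines, Ric1, Insl6, Plgrkt and Ermp1 were higher than in knockout spleens, by 1.22, 0.87, 0.78 and 0.49. Beside Cd80, 5 of 6 neighbours were higher in the lines, among them Pla1a by 2.43 and Popdc2 by 2.26, and Poglut1 had 0.40 ± 0.20 (SE). Beside Cd86, Stfa2 and Stfa3, which encode stefin protease inhibitors, differed by -3.93 and -3.03 from knockout spleens, without overlap. Eaf2 was higher in the lines by 2.70 and Ildr1 by 1.36. Eaf2 and Ildr1 also rose in knockout against wild-type spleens, Eaf2 by 0.83 ± 0.12 (adjusted p = 0.00446 by limma) and Ildr1 by 1.25 ± 0.23 (adjusted p = 0.0139).

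The genes whose level was most like that of Ctla4 over the 22 samples were Dusp14, Odc1, Mlf1, Adss and Prpf38a, with Pearson's r of 0.979, 0.955, 0.953, 0.944 and 0.941. They were picked for this likeness among 13197 genes, the samples share the 3 groups, and no p is given. Dusp14, which encodes a dual-specificity phosphatase, had mean levels of -5.45 in wild-type spleens, -2.60 in knockout spleens and 1.67 in the lines. Odc1, the first enzyme of polyamine synthesis, had 5.70, 6.52 and 7.61 in the same order. Over the 9 lines alone the genes most like Ctla4 were Il6st, Airn, Wipi1, Etv1 and Creg1, with r from 0.893 to 0.918 among 10205 genes. No gene was in both sets of 5.

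Other costimulatory and checkpoint genes were counted from 8 lists. Of the other B7 and CD28 relatives, 0 of 6 tested were higher in the lines than in knockout spleens by limma (0 also at an unadjusted p under 0.05) and 4 lower, among them Cd160. Cd96, a receptor for nectin-like ligands placed in this list, was at least 21.1-fold lower on the deposited signal. Its log2 difference was -2.22 with subtraction and an offset. Of 5 genes of the nectins and their receptors, 2 were higher, Nectin4 (log2 difference 3.83) and Nectin2 (2.91), and 2 lower, Nectin1 (-6.04) and the receptor Cd226 (-3.88). Of 13 genes of TNF family costimulation, 4 were higher and 7 lower. On the deposited signal Tnfrsf8, which encodes CD30, was at least 61.5-fold higher and Cd70, the ligand of CD27, at least 28.4-fold higher. With subtraction and an offset their log2 differences were smaller than these bounds, at 3.04 and 2.37. Cd27 itself differed by -5.37 and Tnfrsf25, the receptor DR3, by -5.76.

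Of 18 genes of other checkpoint pairs, 5 were higher and 11 lower. Havcr1 (TIM-1) was higher by a log2 difference of 6.04 and Nt5e (CD73), which makes adenosine, by 3.62, while Klrg1 differed by -8.94 and Havcr2 (TIM-3) by -6.65. Of 12 adhesion and SLAM family genes, 4 were higher, with Slamf6 at 1.51, and 7 lower, with its adaptor Sh2d1a at -6.72 and Cd5 at -3.82. Of 17 genes that signal below CD28, CTLA-4 and PD-1, 6 were higher, with Akt1 at 1.48 and Pik3cg at 1.13. Another 6 were lower, with the T cell kinase Prkcq at -7.27. Of 12 genes of trafficking and turnover, 2 were higher and 4 lower. These 4 included Marchf1, the ubiquitin ligase that removes CD86 from the surface, at -4.56, and Ciita, the regulator of MHC class II genes, at -1.74. Of 25 transcription regulators, 5 were higher, with Batf at 2.42 and Bcl6 at 1.77. A further 17 were lower, with Tbx21 at -8.34, and Eomes was at least 27.2-fold lower on the deposited signal. Subtraction and an offset gave -2.25 for Eomes. Many of the lowest values rest on dim lines. Klrg1, Prkcq, Sh2d1a and Cd27 were well above background in 1 of 9 lines each, Cd226 in 2, Cd160 in 3 and Nectin1 in 4, and Cd226 and Cd160 lost the call with normexp.

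The medians of these lists were -2.24, -0.05, -0.54, -2.66, -0.74, -0.01, 0.01 and -0.90, in the order given, against 0.18 over all genes. Altogether 28 of these genes were higher and 58 lower than in knockout spleens, against 23 and 58 compared with wild-type spleens, and the shares called over all genes are those given with the 10 genes. With arrays centred on their median, 44 and 43 were higher. Between genotypes, 8 of them passed the test, while of all 13765 genes 1.64% were called higher and 2.16% lower. Tnfsf4 (OX40 ligand) rose by 1.76 ± 0.32 (SE, adjusted p = 0.0127 by limma), and Tnfsf18, Cd6 and Prdm1 rose by 0.76, 0.74 and 0.77, while Sh2d1a, Klrg1, Sla2 and Prkcq had differences of -0.86, -0.85, -0.69 and -0.67. With normexp 0 passed, and Tnfsf4 was at -0.24 and Tnfsf18 at -0.45. Without wild-type spleen 6, and likewise without wild-type spleen 7, 1 gene passed.

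**Figure D4:**
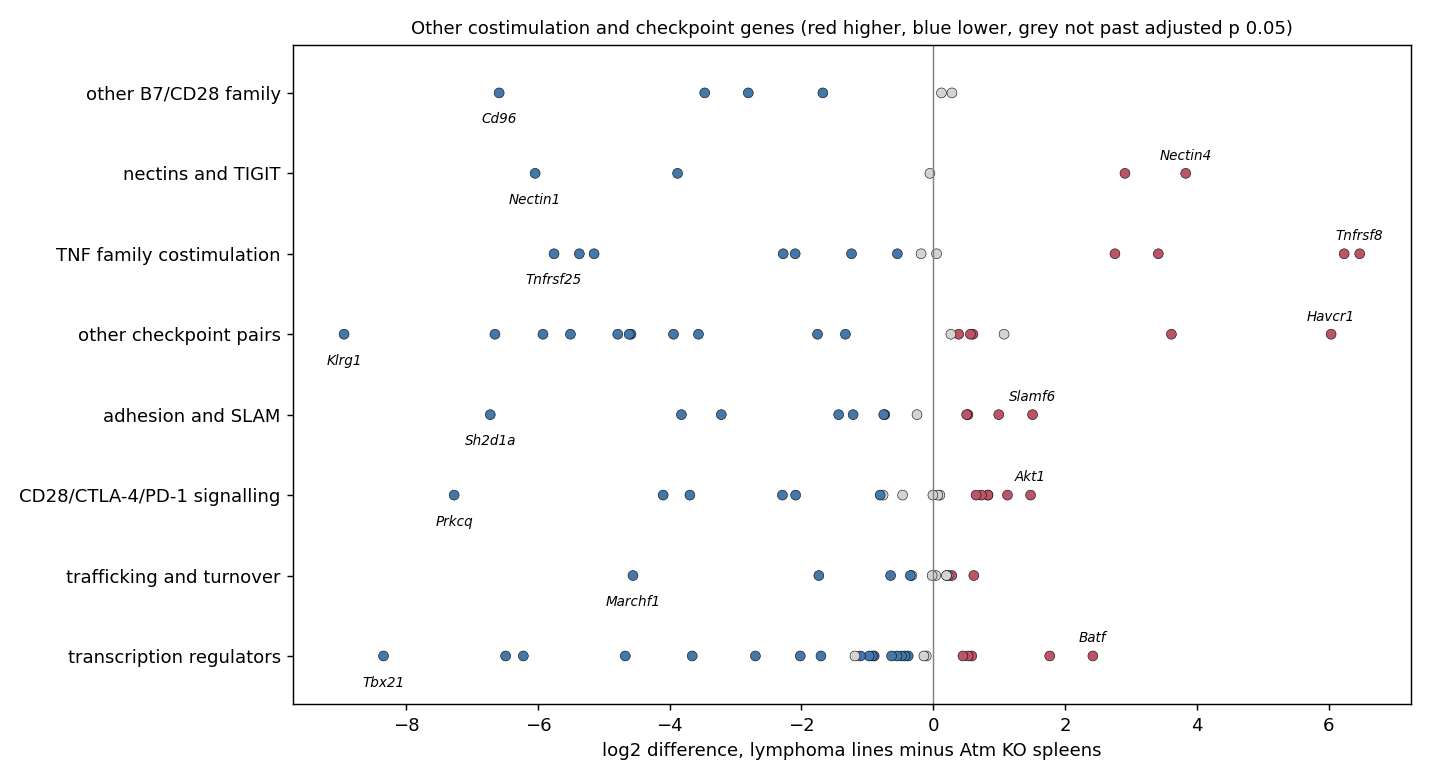
Log2 difference between lymphoma lines and knockout spleens (horizontal axis) for each tested gene of 8 lists (vertical axis). Points are genes, red where higher, blue where lower and grey where the test was not passed, and in each list the gene with the largest difference in each direction without overlap is named. Tnfrsf8 and Cd70 lie farthest to the right, and Klrg1 and Tbx21 farthest to the left.

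Markers of other cell types were counted in the same way. Over all 13765 genes, 41.5% were called higher and 28.9% lower in the lines than in knockout spleens. Neutrophil markers were lower for 10 of 10 genes, and macrophage and monocyte markers for 16 of 17. Of 14 dendritic cell markers, 12 were lower and 1 higher. Of 10 plasma cell markers, 3 were lower and 5 higher, and of 17 B cell markers, 7 were lower and 5 higher. In the lines, NK cell markers were lower for 14 of 14 genes, and their summed level (with the 75th percentile of an array as 1) was 0.44 to 2.98, against 65.7 to 138 over all spleens. Of 23 tested T cell markers, 16 were lower in the lines than in knockout spleens and 5 higher, with 11 to 14 of 26 well above background. Thy1, Cd8a, Gata3, Tcf7, Themis, Trat1, Ubash3a, Txk and Foxp3 were well above background in 0 of 9 lines. Foxp3 was dim in every spleen too, and Trat1 was well above background in 5 of 6 knockout and 2 of 7 wild-type spleens. Cd3g was higher by a log2 difference of 7.34, Il2ra by 2.17, Cd3d by 2.11, Cd3e by 1.87 and Cd2 by 0.99. The summed level of the T cell markers was 13.6 to 50.2 over the lines. It overlapped that of the spleens, which was 32.7 to 45.2 for knockout and 37.8 to 48.1 for wild-type. Their mean log2 level did not overlap, at -5.49 to -3.98 in the lines against -2.17 to -1.81 in the spleens. Of the B cell markers, all 17 were well above background in every spleen and 15 to 17 in the lines, with Ms4a1 (CD20) at 6.70 to 7.35.

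Between genotypes, where Ctla4, Cd83 and Cd274 were higher, 5 of 10 plasma cell markers rose, namely Tnfrsf17, Jchain, Eaf2, Derl3 and Prdm1. Their summed level was 98.2 to 146 in knockout and 56.6 to 79.3 in wild-type spleens. Of 14 NK cell markers 9 fell. Over all 13765 genes, 1.64% were called higher and 2.16% lower in knockout spleens. Of 23 T cell markers 1 rose (Cd6) and 2 fell (Cd247 and Txk), and of 8 regulatory T cell markers 1 rose (Il10), while Foxp3 was well above background in 0 of 22 samples. Of 14 dendritic cell, 17 macrophage and monocyte, 10 neutrophil and 17 B cell markers, 0 passed the limma test, with 4 at an unadjusted p under 0.05. Areg among 9 markers of innate lymphoid cells rose, and Ccl21a among 12 stromal and endothelial markers and Sh2d1a among 6 of follicular helper T cells fell. The summed level of dendritic cell markers was 85.8 to 111 in knockout and 77.1 to 90.6 in wild-type spleens. The part of these cell types in the results on Ctla4, Cd83 and Cd274 was not tested.

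**Figure D5:**
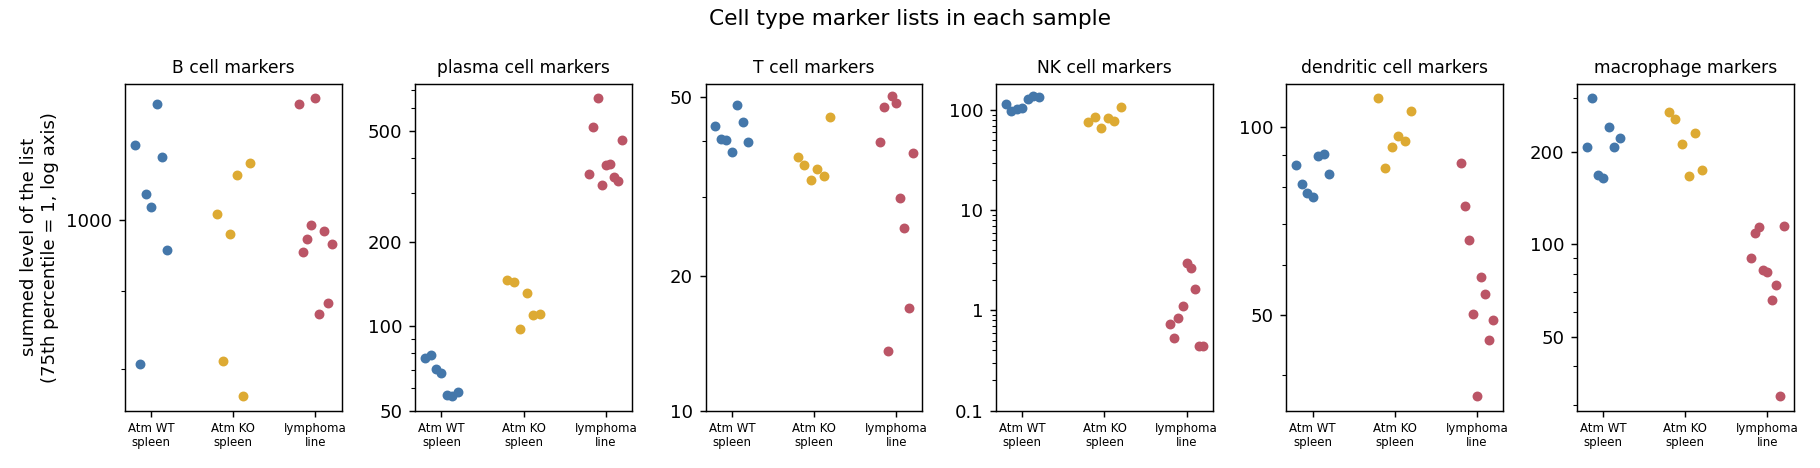
Summed level of 6 cell type marker lists (vertical log axes, with the 75th percentile of the array as 1 and a range of their own in each panel) in 7 wild-type spleens, 6 knockout spleens and 9 lymphoma lines. Points are samples. NK cell markers of the lines lie between 0.44 and 2.98, against 65.7 to 138 in the spleens, and plasma cell markers of knockout spleens lie above those of wild-type spleens.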

How the data were processed

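Each deposited scanner file holds an intensity per spot, from which background had been subtracted by Feature Extraction 10.7.1.1, per the file headers. The deposited value table holds log2 values, each probe centred on a median of 0 over the arrays. It matched the scanner values at a correlation of 1 and served as an alternative. Its scaling is not stated, and its column medians ran from -0.21 to 0.52.

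Control spots and outlier spots were left out (1639 control spots per array and 1556 other spots over 23 arrays), spots of a probe were averaged, and the log2 signal was set relative to the 75th percentile of its array. Symbols came from the RefSeq accession of each probe. Of 41174 probes 26690 matched, and the tested probe with the highest mean stood for a gene. limma 3.58.1 in R 4.3.3 fitted the 3 groups together for the lines, and the 13 spleens with genotype and sex for the genotypes. P-values were adjusted by Benjamini-Hochberg over 13765 genes. Floors for bounds are the lowest level well above background on each array. The bounds hold for the deposited signal only, and subtraction with an offset gave smaller differences for the genes with bounds. Both fits were tested on simulated data. Correlations used exact permutation tests (scipy 1.17.1).

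The 10 genes, the lists and the tests were chosen with earlier results of these data known. Genes named are the 10, up to 2 per list and direction with the largest difference between lines and knockout spleens without overlap, up to 3 neighbours on either side, 5 genes most like Ctla4 per set, and Atm and Cd3e. Genes named in the comparison of genotypes outside this rule were chosen after their values were seen. Some genes that the rule names are left out.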

Additional observations from a re-analysis of the deposited data

How the results depend on the processing

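The alternatives were median centring, quantile normalisation, other background corrections, other filters on dim probes, the deposited value table, the mean over probes, slide as a fixed or random term, either array of line 8 alone, and leaving out each sample or the lines of the slide that held only lines. The scanner files held no mean signal, so normexp used the median signal. It raised the probes of 3 arrays by a 90th percentile of 535 to 1293 intensity units, against 50.9 to 78.1 on 20 arrays. The 3 arrays were those of line 3 and of wild-type spleens 3 and 7. Subtraction with an offset was therefore added after seeing the data. No paired analysis was possible because the labels give no replicate numbers shared between groups.

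Of 830 values of the 10 genes over these settings, 800 kept direction and side of the threshold, 9 lost the call, 6 gained one and 15 turned sign. With median centring, the median over all genes was 0.83 instead of 0.18 against knockout spleens, and the share of higher among called genes went from 59% to 77.6%, and against wild-type spleens from 56.6% to 76.4%. With subtraction it was 64.8% and 60.1%, and between genotypes 32.7% against 43.2%. There it was 66.7% of 3 calls with normexp, 57% with slide as a fixed term and 50% with median centring.

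The genes of the 10 that differed between genotypes numbered 0 instead of 3 with normexp and 6 with no sex term. Of the other pathway genes, 8 differed between genotypes, but 0 with normexp, 5 with slide as a fixed term, 13 with slide as a random block, 19 with no sex term, 4 among female spleens, 1 in a fit of all 3 groups, and 1 to 12 with a sample left out. With median centring 44 and 43 pathway genes were higher in the lines than in knockout and wild-type spleens, instead of 28 and 23. Without the lines of the slide that held only lines, r was 0.69 for Cd274 with Pdcd1lg2 and 0.70 for Cd80 with Cd86. Of the lines against wild-type spleens, Cd83 turned to 0.46 with median centring and 0.016 with normexp. Between genotypes, normexp gave -0.56 for Cd28, -0.29 for Cd80, -0.025 for Icos, -0.70 for Pdcd1 and -0.28 for Pdcd1lg2, none called. Subtraction gave -0.011 for Pdcd1 and -0.021 for Pdcd1lg2, and Pdcd1lg2 was at -0.057 with no sex term and in the fit of all 3 groups. With a sample left out, Icos ran from -0.011 to 0.13 and Pdcd1lg2 from -0.052 to 0.11. The cause of these changes was not tested.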
